A study of Saccharomyces cerevisiae with 6 samples.

Results

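Hexose transporters carry glucose and related sugars across the yeast plasma membrane, and the genes described here are HXT1 to HXT7, HXT10 and the galactose permease gene GAL2. They were chosen by name as transporters of low and high affinity, 9 genes in all, of which 8 had a probe set with their symbol among the 5449 Saccharomyces cerevisiae genes measured. HXT6 had none of its own. Its near-identical neighbour HXT7 was read by a probe set of the kind that several transcripts can share, so that signal is reported as HXT7 and may include HXT6.

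Transcripts were measured in total RNA from strain VTT C-10883, grown anaerobically in chemostats, which are continuous cultures fed with fresh medium. In the control group of 3 biological replicates no inhibitor was added, and in the other 3 replicates a step change had brought in a feed that held furfural and 5-hydroxymethylfurfural (HMF), aldehydes that form when plant sugars break down. The labels state nothing further on the strain's genotype, the sugars fed, the doses or the time after the change. The 6 arrays report log2 signals in which dim probe sets gather at a floor of 2.21, and a difference of 1 is a doubling. All 10 genes of a list known for expression without oxygen lay above background on all 6 arrays, with means in control cultures from 6.91 for AAC3 to 12.74 for TIR1. Background was the 95th percentile of the fission yeast probe sets that the same arrays carry, 2.22 on each array. Of all 5449 genes, 5346 lay above it on all 6 arrays, so passing it is no check of growth without oxygen.

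Yeast tunes these transporters to the sugar outside the cell. Hxt1 and Hxt3 are low-affinity carriers known for growth in ample glucose, Hxt2, Hxt6 and Hxt7 are high-affinity carriers used when glucose is scarce, and Hxt4 lies between them. The membrane sensors Snf3 and Rgt2 act through the kinases Yck1 and Yck2 and the ubiquitin ligase subunit Grr1 to remove Mth1 and Std1, cofactors that let the repressor Rgt1 shut HXT genes, while the repressor Mig1 holds down several high-affinity genes when glucose is plentiful. Gal2 and several Hxt proteins can also carry xylose.

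With inhibitors, HXT3 and HXT4 were lower, no member was higher, and HXT7 and HXT2 gave no difference that passed the test. HXT3 fell by 0.96 on the log2 scale (SE 0.23, n = 3 against 3), which is 1.95-fold, and HXT4 fell by 0.38 (SE 0.12), which is 1.30-fold. The remaining 4 measured members, HXT1, HXT5, HXT10 and GAL2, stayed below a log2 signal of 4 on all 6 arrays. In limma with Benjamini-Hochberg adjustment over all 5449 genes, 2 of 8 members (25%) passed an adjusted p of 0.05, beside 42.2% of all genes, with 2 lower beside 22.3% of all genes and 0 higher beside 19.9%. The median difference was -0.09 over the 8 members and -0.01 over all genes. So the share of members called in either direction was no larger than that of all genes. That share says little about the members with higher signals. Below 4 on all arrays lay 4 of the 8 members, beside 349 of all 5449 genes, and values near the floor understate any change.

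The low-affinity transporter gene HXT3 gave the largest fall among the members. Its signals were 9.35, 8.94 and 9.80 in control replicates 1, 2 and 3, and 8.46, 8.51 and 8.23 in inhibitor replicates 1, 2 and 3. All 3 inhibitor cultures lay below all 3 control cultures, with 0.43 between the lowest control and the highest inhibitor culture. Group means were 9.36 ± 0.43 and 8.40 ± 0.15 (SD, n = 3), and the difference of -0.96 had a 95% interval of -1.54 to -0.39 and an adjusted p of 0.0218 in limma. Among the 5449 genes, 48 fell by at least this much, HXT3 included. The difference was -0.75 without control replicate 3, the highest of the 6 (adjusted p = 0.0308), and -1.18 without control replicate 2, the lowest control (adjusted p = 0.0127). The direction held when any single array was left out, but the call was lost without control replicate 1 (adjusted p = 0.0643) and without inhibitor replicate 1, 2 or 3 (adjusted p = 0.0521, 0.0525 and 0.0687, all in limma). In bulk cultures, fewer cells with the transcript and less transcript per cell cannot be told apart.

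HXT4, the gene of a transporter of intermediate affinity, changed less. Control replicates 1, 2 and 3 gave 11.88, 11.66 and 11.996, and inhibitor replicates gave 11.40, 11.63 and 11.35. The groups did not overlap, but only 0.02 separated control replicate 2 from inhibitor replicate 2. The means of 11.84 ± 0.17 and 11.46 ± 0.15 (SD, n = 3) differed by -0.38, with a 95% interval of -0.67 to -0.09 and an adjusted p of 0.0458 in limma, just inside the threshold. That call was lost without control replicate 1 or 3 (adjusted p = 0.121 and 0.117) and without inhibitor replicate 1 or 3 (adjusted p = 0.114 and 0.126). It was also lost with array weights (adjusted p = 0.0805) and when values under 4 were raised to a log2 floor of 4 (adjusted p = 0.0657). That floor left the signals of HXT4 itself, and its difference of -0.38, unchanged.

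Neither measured high-affinity gene was called. HXT7, whose probe set may also read HXT6, had signals of 12.60, 12.47 and 12.39 in control replicates and 12.44, 12.50 and 12.47 in inhibitor replicates. The groups overlapped, and the difference of -0.02 had a 95% interval of -0.16 to 0.13 (adjusted p = 0.852 in limma). A change of HXT7 beyond 0.16 on the log2 scale thus lay outside the interval. If HXT6 and HXT7 moved in opposite ways, this joint signal could not show it.

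HXT2, the other high-affinity gene, was less precisely measured. It gave 6.42, 6.22 and 6.42 in control replicates, and 6.60, 6.33 and 5.95 in inhibitor replicates. Inhibitor cultures held both the highest and the lowest of the 6 values. The difference of -0.06 (adjusted p = 0.819 in limma) had a wide 95% interval, from -0.49 to 0.38, which still includes a change as large as that of HXT4.

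**Figure D1:**
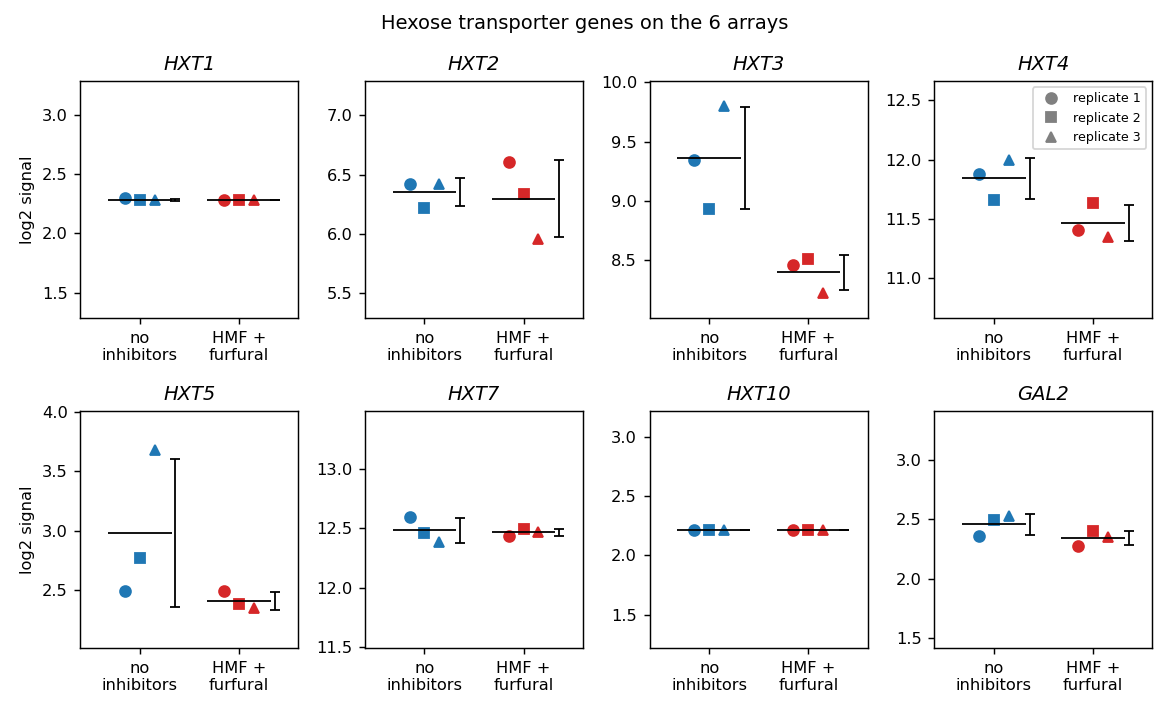
Log2 signal of the 8 measured hexose transporter genes, 1 point per array, with control cultures in blue and cultures with HMF and furfural in red; horizontal lines are group means, bars show 1 SD (n = 3), and each panel spans its own range of at least 2 log2 units. HXT3 separates by 0.43 between groups and HXT4 by 0.02, while HXT7 and HXT2 overlap and HXT1 (2.28 to 2.29) and HXT10 (2.21) lie flat at or just above the floor.

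HXT5, known for expression in slow growth and under stress, lay above background on all 6 arrays, but at low signals. It read 2.49, 2.77 and 3.68 in control replicates, and 2.49, 2.38 and 2.35 in inhibitor replicates. Control replicate 3 alone exceeded 3, and the gap between groups was 0.000393, so control replicate 1 and inhibitor replicate 1 were practically equal. The difference of -0.57 (SE 0.31) had an adjusted p of 0.195 in limma, and without control replicate 3 it was -0.22 (adjusted p = 0.155).

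Signals of the other 3 members carried little or no information on a change. HXT1, the low-affinity gene induced by high glucose, was at the same value of 2.28 on 5 arrays and at 2.29 in control replicate 1. HXT10, a transporter gene little used in laboratory growth, was at the floor of 2.21 on all 6 arrays. GAL2 read 2.36, 2.49 and 2.53 in control replicates and 2.28, 2.40 and 2.35 in inhibitor replicates, with overlapping groups and a difference of -0.12 (adjusted p = 0.153 in limma). HXT1 and GAL2 lay above background on all 6 arrays, and HXT10 on none. For HXT1 this does not show a transcript, since 5 of those arrays shared its lowest value. Values this near the floor understate any change, and no fold is given for these genes.

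Over the members, groups did not overlap for 3 of 8 (HXT3, HXT4 and HXT5), all lower, beside 55.4% of all genes whose groups were apart in either direction and 29.3% in that direction. Changes of the 4 members above a signal of 4 were also set against each other within each array. Relative to HXT7, HXT3 changed by -0.95 and HXT4 by -0.37, and relative to HXT4, HXT3 changed by -0.58. HXT2 changed by 0.91 relative to HXT3 and by 0.32 relative to HXT4. In these 5 comparisons the groups did not overlap. Each had p = 0.1 in a two-sided exact permutation test (adjusted p = 0.12 over 6 pairs). A p of 0.1 is the smallest that 3 against 3 arrays can give, so this test could call no pair and decides nothing. All 5 comparisons include HXT3 or HXT4, whose own groups were apart, so they are not independent of each other or of those results. How often other pairs of genes stay apart was not computed. The remaining pair, HXT2 and HXT7, gave -0.04 with overlapping groups (exact permutation p = 1).

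HXT3 and HXT4 ordered the replicate cultures in a similar way. Control replicate 3 was the highest and control replicate 2 the lowest of its group for both genes, and inhibitor replicate 2 was the highest and inhibitor replicate 3 the lowest. Deviations from the group means correlated at r = 0.87 over the 6 arrays for HXT3 and HXT4, against -0.33 for HXT3 and HXT7 and 0.52 for HXT3 and HXT2. For HXT4 the r was 0.41 with HXT2 and -0.01 with HXT7, and pairs outside the members were not computed. These are descriptions of 6 arrays that share 2 group means. The genes whose signals followed HXT3 most closely over all 6 arrays were ECM7 (r = 0.997), the glutathione reductase gene GLR1 (r = 0.995) and the maltose permease family gene MPH2 (r = 0.994). These correlations were picked as the highest over all measured genes outside the members, so high values are no sign of a particular link. Each of them includes the difference between the groups, and MPH2 was read by a shared probe set near the floor.

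In gene order on the reference strain, HXT7, HXT6 and HXT3 lie side by side on chromosome IV, with 1 uncharacterized gene, YDR344C, before HXT3. HXT4, HXT1 and HXT5 lie on chromosome VIII in that order, with AHT1 between HXT4 and HXT1. On chromosome IV, HXT3 was lower and HXT7 was not called, and on chromosome VIII, HXT4 was lower and HXT1 and HXT5 were not called. On the far side of HXT3, SVF1 had a difference of 0.03 (adjusted p = 0.708) and the next gene MRP1 fell by 0.18 (adjusted p = 0.0311). On the far side of HXT4, MSR1 had a difference of -0.10 (adjusted p = 0.105) and the next gene YNG2 rose by 0.12 (adjusted p = 0.0125). Beyond HXT7, YDR341C had a difference of 0.03 (adjusted p = 0.56) and FCF1 rose by 0.23 (adjusted p = 0.00228). Beyond HXT5, SFB3 fell by 0.10 (adjusted p = 0.0312, all in limma).

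Outside the chosen members, 7 other genes of the transporter family were measured, of which 2 rose and none fell. These 2 are 28.6% of the 7, beside 42.2% of all genes called in either direction and 19.9% called higher. HXT14 went from 5.40 ± 0.16 to 5.87 ± 0.09 (SD, n = 3), a rise of 0.47 (adjusted p = 0.0117 in limma), with all 3 inhibitor cultures above all 3 control cultures. HXT8 read 2.38, 2.67 and 2.33 in control cultures and 3.54, 4.20 and 3.51 with inhibitors, a rise of 1.29 that starts near the floor (adjusted p = 0.00752). Raised to a floor of 4, HXT8 kept 0.07 of that difference (adjusted p = 0.449). HXT8 lies between the isomaltase gene IMA5, which rose from 4.64 to 6.63, and YJL213W, which fell by 0.41 (adjusted p = 0.00776 in limma). Beyond IMA5, REE1 rose by 0.61 (adjusted p = 0.000727), and beyond YJL213W, OPT1 fell by 1.03 (adjusted p = 0.000578, both in limma). HXT9, which with HXT11 is known from drug resistance, gave -0.23 (adjusted p = 0.0814), and 4 of the 7, HXT11, HXT13, HXT15 and HXT17, stayed below 4 on all arrays.

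**Figure D2:**
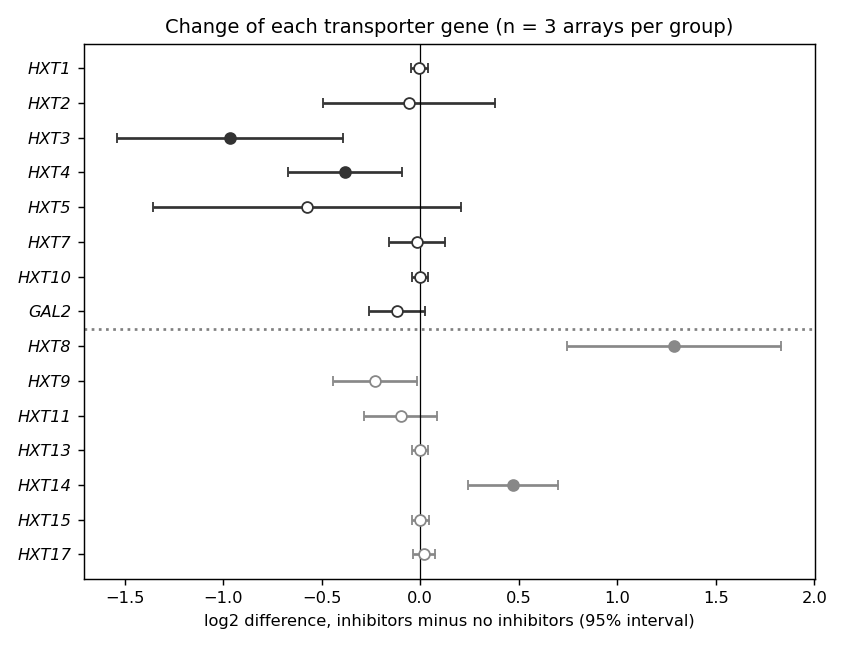
Log2 difference, cultures with inhibitors minus control cultures, for each measured transporter gene with its 95% interval from limma (n = 3 arrays per group). Filled points passed an adjusted p of 0.05: HXT3 at -0.96 and HXT4 at -0.38 among the members above the dotted line, HXT8 at 1.29 and HXT14 at 0.47 among the other family genes below it. Intervals near 0 for HXT1, HXT10, HXT13, HXT15 and HXT17 come from signals at or just above the floor.

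Of 10 genes for glucose sensing and HXT induction, 3 rose and 3 fell (60%, beside 42.2% of all genes). The sensor gene RGT2 fell from 6.89 to 6.42, by 0.47 (adjusted p = 0.00739), and the other sensor gene SNF3 had a difference of -0.21 (adjusted p = 0.0407), a call lost under 8 alternatives. The cofactor genes of the Rgt1 repressor went opposite ways. MTH1 rose from 8.35 to 8.67, by 0.33 (adjusted p = 0.00119), and STD1 fell from 6.88 to 6.64, by 0.24 (adjusted p = 0.00805). The repressor gene RGT1 itself gave -0.29 and was not called (adjusted p = 0.0617), and it passed under 3 alternatives. YCK1, a membrane casein kinase gene, rose by 0.38 (adjusted p = 0.000483) and TUP1, the general corepressor gene, by 0.27 (adjusted p = 0.00163). YCK2, GRR1 and CYC8 of the same list gave 0.04, -0.11 and -0.01 and were not called (adjusted p = 0.555, 0.18 and 0.757). All these tests were in limma with 3 arrays per group.

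Of 19 glucose repression genes, 5 rose and 4 fell (47.4%, beside 42.2% of all genes). REG2, which encodes a regulator of the Glc7 phosphatase, rose by 0.65 (adjusted p = 0.00489), and the repressor gene NRG1 rose by 0.41 (adjusted p = 0.00176). SIP2, a subunit gene of the Snf1 kinase, fell by 0.58 (adjusted p = 0.000902), and ADR1, an activator of genes for non-fermentable carbon, by 0.52 (adjusted p = 0.0138). MIG1 went from 7.72 to 7.85, a difference of 0.13 (adjusted p = 0.0228 in limma) whose call was lost under 6 alternatives. Of the 4 sugar kinase genes, 1 was called (25%, beside 42.2% of all genes). This was HXK2, the main hexokinase, also counted among the repression genes, which rose from 11.53 to 11.79 (adjusted p = 0.00373 in limma). HXK1, GLK1 and EMI2 had differences of -0.12, -0.13 and -0.03 that were not called, and HXK1 passed as lower under 2 alternatives.

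Beside GAL2, 7 genes of galactose use were measured, of which 2 rose and 2 fell (57.1%, beside 42.2% of all genes). GAL80, the inhibitor of the activator Gal4, fell from 8.61 to 8.35 (adjusted p = 0.00966), and GAL3, which relieves that inhibition, rose by 0.43 from a mean of 4.57 (adjusted p = 0.011). GAL1, the galactokinase gene, gave -0.18 at a signal of 4.38 in control cultures (adjusted p = 0.0717 in limma), and GAL7 and GAL10 stayed below 4 on all arrays. The phosphoglucomutase genes moved apart, with PGM1 higher by 0.48 (adjusted p = 0.00048) and PGM2, the major isoform, lower: it fell by 1.15 (adjusted p = 0.000558). No value is given for GAL4, the activator of the pathway, which had no probe set under its own symbol.

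Disaccharide genes, several of which glucose represses, gave 5 rises and 2 falls among 10 (70%, beside 42.2% of all genes). IMA5 was higher by 1.99 (adjusted p = 0.000391). The invertase gene SUC2 read 9.33, 9.30 and 9.38 in control cultures and 10.30, 10.35 and 10.08 with inhibitors, a rise of 0.90 (adjusted p = 0.00107). The maltose permease genes MAL31 and MAL11 rose by 0.68 and 0.31 (adjusted p = 0.000391 and 0.00116). MPH2 had a difference of -0.44 (adjusted p = 0.0303), read by a shared probe set near the floor, a call lost under 9 alternatives. Without shared probe sets, MPH2 gave -0.06 (adjusted p = 0.502 in limma).

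Among 18 genes for the ubiquitination and endocytosis of transporters, 1 rose and 6 fell (38.9%, beside 42.2% of all genes). RSP5, the ubiquitin ligase gene, fell from 9.86 to 9.49, by 0.37 (adjusted p = 0.0129), and ROG3, an arrestin-like adaptor gene that acts on Hxt proteins, fell by 0.38 (adjusted p = 0.0047). The adaptor gene ECM21 fell by 0.26 and VID24, which acts in the breakdown of gluconeogenic enzymes, by 0.25 (adjusted p = 0.00805 and 0.00784). CSR2, the adaptor gene that rose, was higher by 0.33 (adjusted p = 0.00766 in limma). ROD1, the adaptor gene related to ROG3, gave -0.09 and was not called (adjusted p = 0.364).

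**Figure D3:**
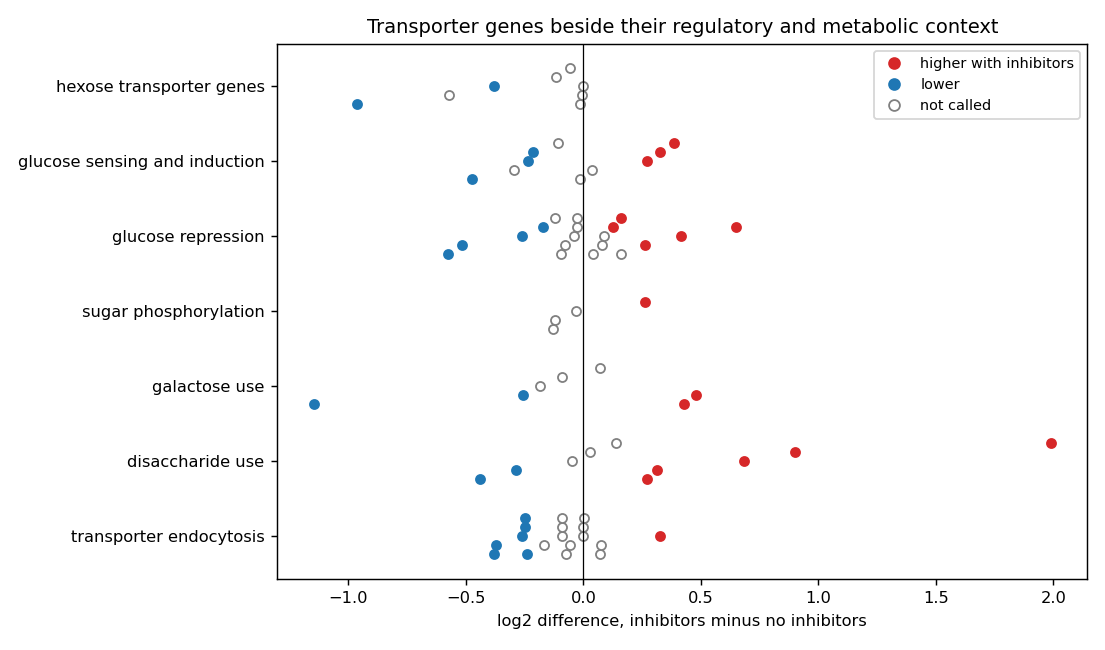
Log2 difference, cultures with inhibitors minus control cultures, with 1 point per gene in the hexose transporter group and in 6 lists of related genes; red points were called higher and blue points lower in limma, open points were not called, and vertical scatter only separates points. The 2 called transporter genes lie on the lower side, while disaccharide genes give 5 rises and 2 falls. Of all genes, 19.9% were called higher and 22.3% lower.

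**Figure D4:**
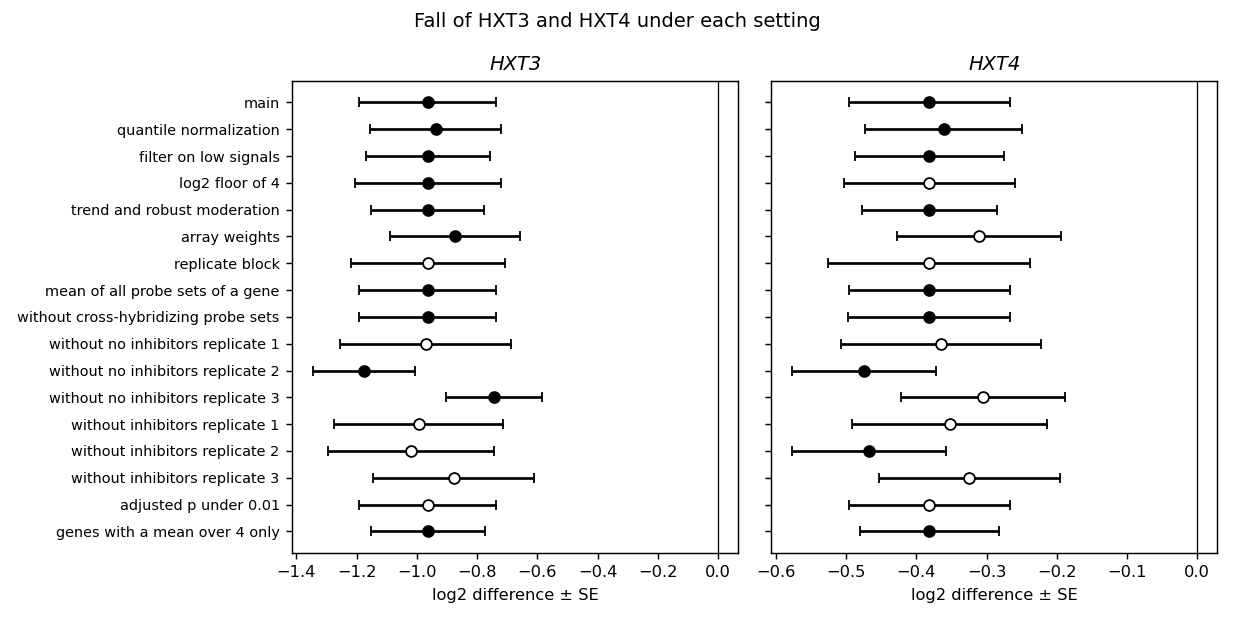
Log2 difference of HXT3 and HXT4 with its SE from limma, under the settings as reported (top row) and 16 alternatives; filled points passed the threshold of that setting. The difference lay between -1.18 and -0.75 for HXT3, which passed in 10 of the 16, and between -0.47 and -0.30 for HXT4, which passed in 8.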

How the data were processed

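The deposited values are log2 signals of Affymetrix arrays, and per the submitters' processing notes the authors used GCRMA, a background correction based on probe sequence with quantile scaling of arrays, and limma (no versions stated). The table held 10762 probe sets, of which the platform annotation, which can be old, paired 7244 with 1 gene, 1 with several and left 3517 unlisted. Of the 7244, 5498 had a gene ID in the RefSeq table of S. cerevisiae, which gave current names and gene order only, and the other 1746 served as fission yeast background. Where a gene had several probe sets (47 genes), the brightest on average stood for it. HXT7 was the member read by a shared probe set.

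The comparison used limma 3.58.1 in R 4.3.3 (lmFit and eBayes, two-sided, group as the single factor, no further normalization), with Benjamini-Hochberg adjustment over 5449 genes and calls at an adjusted p under 0.05. The fit was tested on simulated data. The members and lists were chosen with earlier results of these data known. Named were all members, up to 5 called genes per list by size of change, a fixed set of regulators (RGT1, MTH1, STD1, SNF3, RGT2, MIG1, HXK2, GAL1, GAL4 and GAL80) and the 3 genes most like HXT3. HXT9, HXK1, GLK1, EMI2, ROD1, YCK2, GRR1, CYC8 and the chromosomal neighbours were chosen after their values were seen. Replicates are biological per the labels; the number of arrays limits the precision. Alternatives covered normalization, low signals, moderation, array weights, a replicate block, probe set choice, the threshold and leaving out each array. Figures were drawn with matplotlib 3.10.9.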

Additional observations from a re-analysis of the deposited data

How the results depend on the processing

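No member passed as higher under any alternative in limma, and at an unadjusted p under 0.05 the count of higher members was also 0 under each. The 2 lower members, HXT3 and HXT4, kept their direction throughout. The count of lower members was 1 with a log2 floor of 4 and with array weights, 0 with the replicate number as a block, and 0 at an adjusted p under 0.01, where 608 genes were higher and 582 lower in all. At an unadjusted p under 0.05 the block left 2 lower. Leaving out 1 array at a time gave 0 to 2 lower members, 855 to 1023 genes higher and 868 to 1117 lower. Quantile normalization, the filter on low signals, trend and robust moderation and both probe set alternatives gave 2, as did a fit on genes with a mean over 4, chosen after seeing the data. Labels give no pairing of replicates, so the numbers were not taken as pairs. Deviations of arrays with the same number correlated at -0.21, -0.27 and -0.19. Deviations cancel out within each group, so these correlations depend on each other and cannot decide on pairing. With that block, 774 genes were higher and 810 lower, and HXT3 and HXT4 had adjusted p of 0.0702 and 0.135. HXT7 has no value without shared probe sets, nor have HXT1, HXT5, HXT10 and GAL2 under a floor of 4. For the 74 related genes, 1095 of 1163 values kept their side of the threshold, 45 lost a call, 23 gained one and 0 called values changed sign. What made calls come and go was not tested.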

Other observations

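Replicate cultures of 1 group differed more in HXT3, HXT2 and HXT4 than in most genes. The pooled within-group SD was 0.32 for HXT3, 0.25 for HXT2, 0.16 for HXT4 and 0.08 for HXT7 on the log2 scale, against a median of 0.06 over the 5060 genes with a mean over 4. Of those genes, 11 (0.217%) had an SD at least as large as that of HXT3, 27 (0.534%) as that of HXT2, 140 (2.77%) as that of HXT4 and 1493 (29.5%) as that of HXT7, each count with the gene itself. These values were looked up after the replicate values had been seen.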
